A study of Mus musculus with 16 samples.

Results

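The genes described here are 43 genes of the actin cytoskeleton and of cell migration, taken by gene name from a fixed list and found in a table of 43346 genes. RNA was sequenced from lung endothelial cells (lung ECs, which form the inner lining of vessels), isolated by flow sorting as CD31 positive and as CD45, EpCAM and GFP negative, so that leukocytes, epithelium and cells with an active Col1a1-GFP reporter were to be left out. All groups were FVB mice of both sexes with the collagen reporter transgene. Young Sham (n = 5, 2 months old) and Aged Sham (n = 3, 18 months old) received PBS in the trachea, and Young Bleo (n = 4, 2 months old) and Aged Bleo (n = 4, 18 months old) received bleomycin, a drug that injures the lung and leads to fibrosis. The age given is that in the labels, each library is one labelled sample, and nothing in the labels gives a batch. The study asked how lung ECs of young and aged mice differ before and after this injury, and cell migration was one of the processes it followed.

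Actin filaments are built from actin monomers that are held in a soluble pool by thymosins and profilin, and they are taken apart by cofilin. New filaments branch from older ones through the Arp2/3 complex, or are extended at their growing ends by the Ena/VASP proteins and formins, while capping proteins stop growth there. Bundling proteins such as fascin and alpha-actinin gather filaments into the spikes and fibres of a moving cell, non-muscle myosin contracts them, and vinculin, talin, zyxin and paxillin tie them to adhesions. In blood vessels this machinery sets the shape of the endothelial barrier and drives the movement of ECs during vessel growth and repair.

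Every one of the 43 genes had at least 10 counts in each of the 16 libraries, and together they took between 2.12% and 3.28% of a library's counts. Depth ranged from 20.9 M to 71.0 M counts per library, with 15092 to 17259 genes at 10 or more counts. The 6 endothelial markers (Pecam1, Cdh5, Kdr, Tie1, Emcn and Egfl7) were all present and summed to between 311498 and 452988 normalized counts in a library. Markers of other cells were present too, and differed by group. The 7 leukocyte markers (Ptprc, Cd68, Lyz2, Adgre1, Mrc1, Coro1a and Lcp1) summed to 7374 to 11326 for Young Sham, 10993 to 28089 for Aged Sham, 25595 to 65343 for Young Bleo and 30577 to 194537 for Aged Bleo. The 5 platelet markers (Pf4, Ppbp, Itga2b, Gp9 and Gp1bb) summed to 398519 in Aged Sham replicate 14, against 110357 and 74317 in the other Aged Sham libraries and at most 54523 in any other group. The 6 markers of smooth muscle and pericytes were at 9295 to 20641 for Young Sham and 2260 to 4411 for Aged Bleo. Of the markers listed for these cells and for fibroblasts, mesothelium and epithelium, 1 was at 0 in every library of a group, the mesothelial gene Wt1 for Young Sham. Of the 43 actin genes, 18 had their highest value of all 16 libraries in Aged Sham replicate 14. The share of all genes that were highest there was not computed, so this count is not shown to be particular to the actin genes.

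Per unit of gene length, many of these were among the most abundant RNAs in the sorted cells. Of the 43 genes, 13 stood in the top 1% of all genes by mean FPKM over the 16 libraries, 26 in the top 5% and 37 in the top 10%. These ranks are over all 43346 genes, of which 15092 to 17259 had 10 or more counts in a library. Tmsb4x (thymosin beta 4, which holds actin monomers) had the highest level at 709 FPKM, 18th of all genes, followed by Actb (beta-actin) at 511 FPKM and Cfl1 (cofilin, which severs filaments) at 352 FPKM. The median of the list was 34.5 FPKM, with 11 genes over 100 FPKM and 9 under 10. At the low end stood Tpm2 (a tropomyosin) at 5.03 FPKM, Evl (an Ena/VASP protein) at 2.58 FPKM and Enah (another) at 0.0699 FPKM. Reads of the actins, Tmsb4x, Cfl1 and Pfn1 can map to near-identical processed copies elsewhere, so their levels are uncertain.

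**Figure D1:**
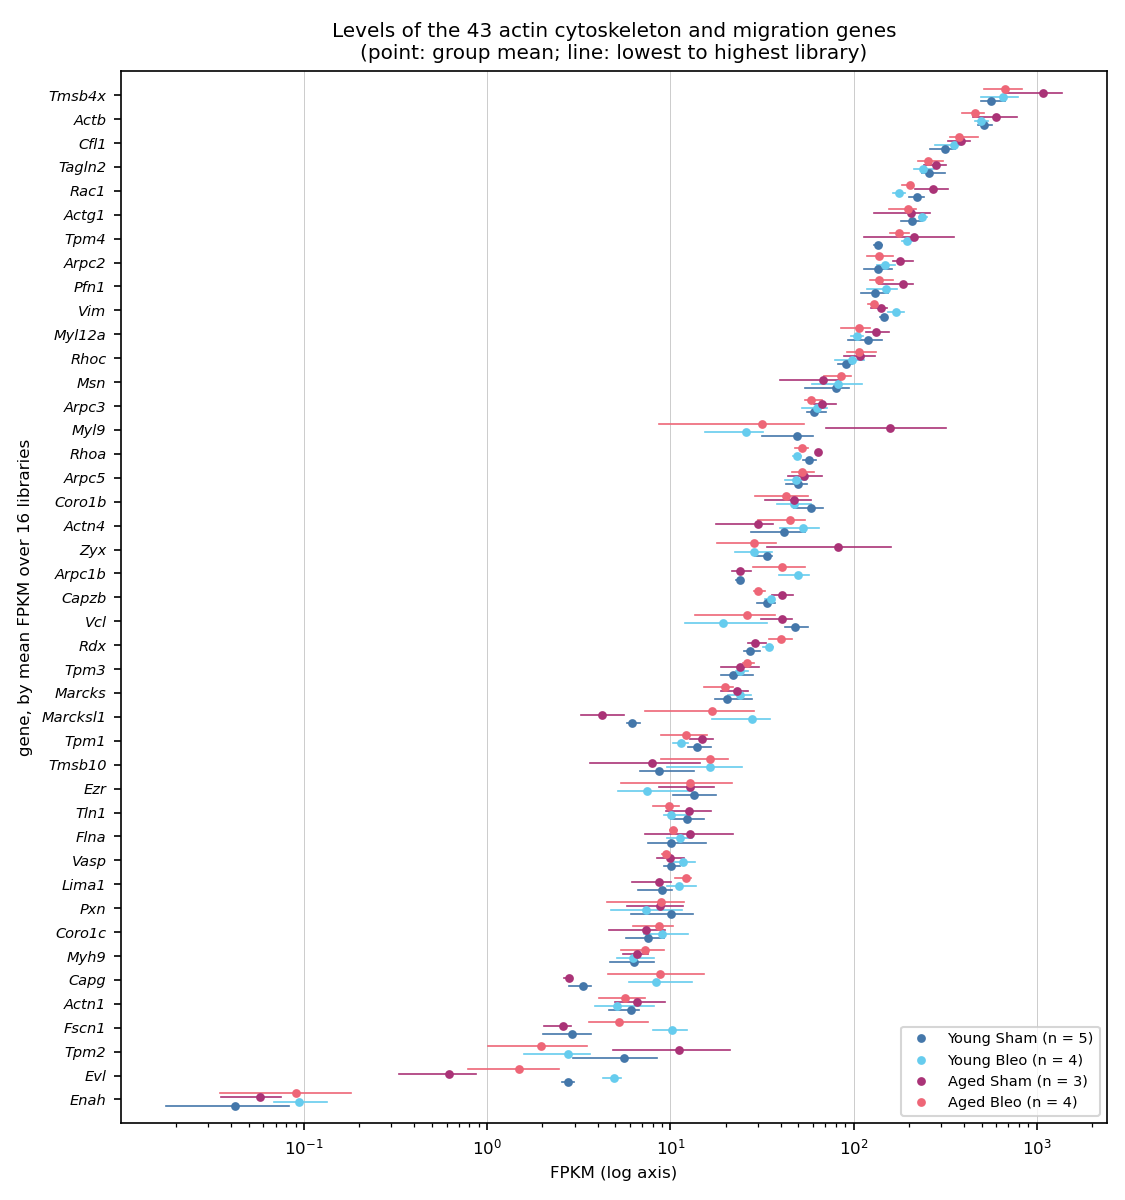
Level of each of the 43 genes in FPKM (horizontal log axis), with a point for the mean of each group and a line from the lowest to the highest library. The genes run from 709 FPKM for Tmsb4x to 0.0699 FPKM for Enah and the group means of Evl from 4.91 FPKM for Young Bleo to 0.621 FPKM for Aged Sham.

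The spread between replicates was smallest in Young Sham. The median coefficient of variation over the 43 genes was 13.5% for Young Sham, 15.9% for Young Bleo, 23.3% for Aged Sham and 19.1% for Aged Bleo. Among all genes averaging 300 normalized counts or more, 10372 in number and including 42 of the 43, the corresponding medians were 15.8%, 18.3%, 21.1% and 18.8%. Vim (vimentin, an intermediate filament protein) varied least, with a coefficient of variation of 0.184% over the 4 Aged Bleo libraries, and Myl9 (a myosin light chain) varied most, with 88.2% over the 3 Aged Sham libraries. Normalized counts below are deposited counts divided by DESeq2 size factors. A gene was called by the DESeq2 Wald test. Its Benjamini-Hochberg adjusted p over all genes had to be at most 0.05 and its log2 fold change at least 0.5 in size. The edgeR quasi-likelihood result stands beside each call as the first alternative. In simulation DESeq2 made more false calls than edgeR and also recovered more of the changed genes. The groups were compared in 6 contrasts that share their control libraries, so that they are not independent of each other.

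Age without injury was compared as Aged Sham against Young Sham. Tmsb4x, Zyx (zyxin, an adhesion protein) and Myl9 were higher in Aged Sham, and Evl was lower. These 4 calls were 9.3% of the 43 genes, against a background of 3.35% among all 18515 genes tested (2.24% higher and 1.11% lower) and 3.51% among genes of at least 300 counts. With edgeR 2 of them were called, Evl and Tmsb4x, against 0.857% of all genes (0.688% higher and 0.169% lower). The groups did not overlap for the same 4 genes, 3 higher and 1 lower, against 4.95% and 3.78% of all genes in those directions. The median log2 fold change of the 43 genes was 0.24 and 34 of them were above 0, where the median of all genes was 0.02. With limma on log2(FPKM + 0.1) the median of the 43 genes was 0.09 and 25 were above 0, but the median of all genes was also lower, at -0.12. Without Aged Sham replicate 14 that median was 0.12, 28 genes were above 0 and 2 were called (Evl and Tmsb4x), and without Aged Sham replicate 15 there were 7 calls, 6 higher and 1 lower. The share of all genes called was 2.06% and 3.97% in these fits.

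Injury in young mice was compared as Young Bleo against Young Sham. Fscn1 (fascin), Marcksl1 (a regulator of membrane and actin), Arpc1b (an Arp2/3 subunit), Capg (a capping protein) and Evl were higher in Young Bleo, and Vcl (vinculin) was lower. The 6 calls were 14% of the genes, close to the 13.9% of all genes that DESeq2 called in this comparison (7.57% higher and 6.35% lower) and below the 17.5% called among genes of at least 300 counts. All but Evl were called by edgeR as well, 5 against 9.7% of all genes (5.64% higher and 4.06% lower). The groups did not overlap for 7 higher genes (Evl, Arpc1b, Fscn1, Tpm4, Rdx, Marcksl1 and Capg) and 4 lower genes (Myl9, Tpm1, Rac1 and Vcl), where 7.62% and 7.17% of all genes did so. The median log2 fold change of the list was 0.10 beside 0.01 for all genes. Among members not called, the log2 fold changes of Enah (1.12), Tpm2 (-1.03), Myl9 (-0.97), Tmsb10 (0.91) and Ezr (-0.88) were larger in size than that of Evl (0.81), which was called.

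The contrast of Aged Bleo with Young Sham, which changes age and injury together, gave 8 calls, or 18.6% of the genes, against 9.72% of all genes tested (6.58% higher and 3.14% lower) and 10.3% of genes with at least 300 counts. Rdx (radixin), Capg, Marcksl1, Arpc1b and Fscn1 were higher in Aged Bleo by DESeq2 and by edgeR, and the edgeR background was 5.62% (4.15% higher and 1.47% lower). Tpm2, Vcl and Evl were lower by DESeq2 alone. The groups did not overlap for 6 higher genes (Arpc1b, Lima1, Tpm4, Rdx, Marcksl1 and Capg), against 5.82% of all genes, and for 3 lower genes (Evl, Vim and Vcl), against 4.94%. Without Aged Bleo replicate 1, and again without Aged Bleo replicate 2, 4 members were called in place of 8, while the share of all genes called was 5.71% and 5.9% in place of 9.72%.

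Injury in aged mice was compared as Aged Bleo against Aged Sham. DESeq2 called Marcksl1, Capg, Fscn1 and Evl higher in Aged Bleo and Tpm2, Myl9, Zyx, Tmsb4x, Capzb (a subunit of capping protein) and Rac1 (a GTPase) lower. These 10 calls made up 23.3% of the genes, against 5.83% of all genes (3.39% higher and 2.44% lower) and 7.19% of genes with at least 300 counts, but edgeR called Tpm2 alone, against 0.715% of all genes (0.415% higher and 0.3% lower). Of the 43 genes 14 were above 0, and their median log2 fold change was -0.27 beside 0.01 for all genes. With limma on log2(FPKM + 0.1) these medians were -0.13 and 0.12. In the DESeq2 fit without Aged Sham replicate 14 the median of the 43 was -0.13 and 5 genes were called, the 4 higher ones and Tpm2, with 6.98% of all genes called. Without Aged Bleo replicate 1 there were also 5 calls, 1 higher and 4 lower, with 2.65% of all genes called, while without Aged Bleo replicate 2, 3 or 5 there were 12 calls, with 5%, 8.34% and 7.17% of all genes called. The groups did not overlap for 4 higher genes (Fscn1, Lima1, Marcksl1 and Capg), against 5.94% of all genes, and for 7 lower genes (Myl9, Tpm2, Vim, Rhoa, Rac1, Zyx and Capzb), against 6.14%.

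Age after injury was compared as Aged Bleo against Young Bleo, where Evl and Fscn1 were lower in Aged Bleo. The 2 calls were 4.65% of the genes, against 1.03% of all genes (0.616% higher and 0.41% lower) and 0.984% of genes with at least 300 counts. With edgeR 0 of the 43 genes were called and 5 had an unadjusted p under 0.05 (11.6%, beside 8.7% of all genes), while 0.0218% of all genes were called. Evl, Fscn1 and Vim did not overlap between these groups, all 3 lower in Aged Bleo, as did 2.27% of all genes, and 2.81% were higher without overlap. The direct test of whether the response to bleomycin differed between the ages, the aged response minus the young one, called 0 of the 43 genes by DESeq2 or by edgeR, against 0.381% and 0.00546% of all genes. At an unadjusted p under 0.05 there were 12 genes by DESeq2 and 10 by edgeR, which is 27.9% and 23.3% of the 43, beside 8.1% and 6.89% of all genes. A response called at one age and not at the other is therefore not shown to differ for any of these genes. The median difference of responses over the 43 genes was -0.20 by DESeq2, with 11 above 0, beside 0.003 for all genes. Without Aged Sham replicate 14 it was -0.09, with 16 above 0, beside 0.05 for all genes. Between the bleomycin groups, leaving out Aged Bleo replicate 3 or 5, or Young Bleo replicate 17 or 18, gave 1 call, with 0.596% to 0.837% of all genes called. Without Young Bleo replicate 20 there were 4 calls between the bleomycin groups and 2 calls in the difference of responses, with 2.62% and 1.23% of all genes called. In the difference of responses there were also 2 calls without Aged Sham replicate 13 and without replicate 15, and 1 without replicate 14, with 0.49%, 0.592% and 0.3% of all genes called.

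**Figure D2:**
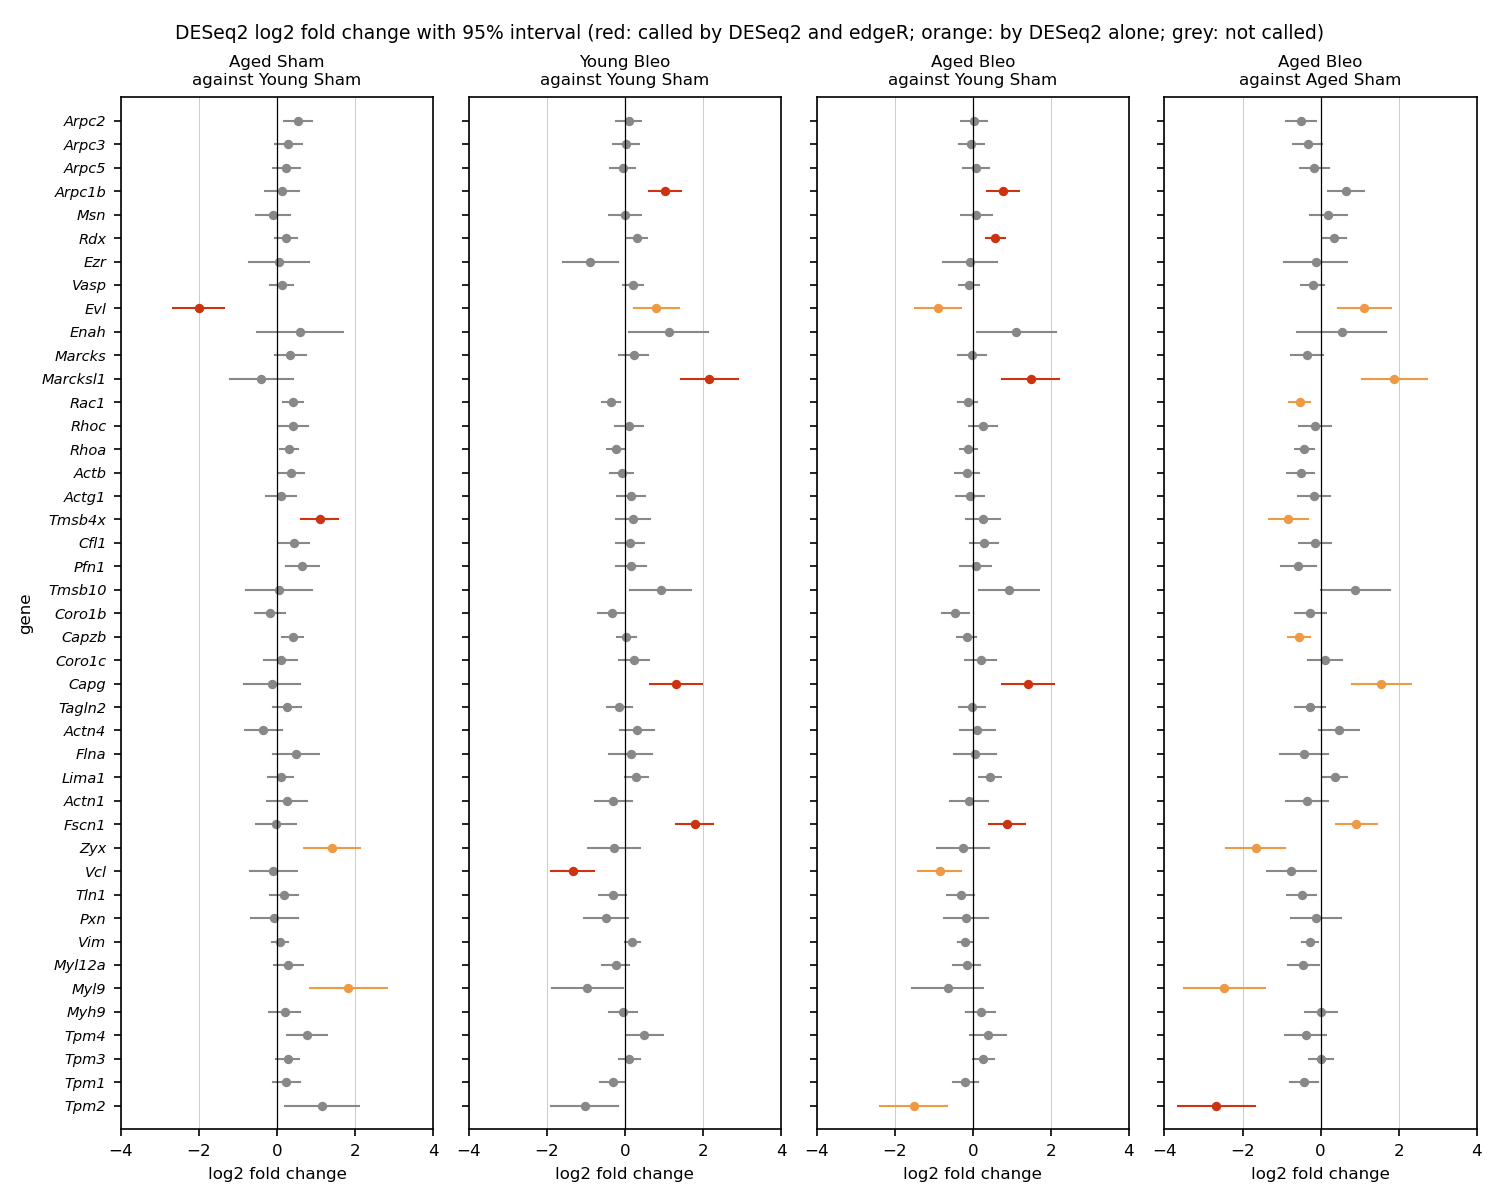
DESeq2 log2 fold change of the 43 genes (horizontal axis) with its 95% interval in 4 of the contrasts, with red for genes called by DESeq2 and edgeR, orange for DESeq2 alone and grey for no call. Most genes lie within 0.5 of 0, Marcksl1, Capg and Fscn1 lie to the right in all 3 panels with a bleomycin group, and Evl lies to the left against Young Sham at 18 months and to the right in Young Bleo.

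The Ena/VASP proteins bind the growing ends of actin filaments and hold off capping. Evl (chr12:108554720-108688513, mm10) was the member with the smallest adjusted p between the ages. Its normalized counts were 806, 692, 734, 740 and 791 for Young Sham, 1370, 1154, 1498 and 1249 for Young Bleo, 210, 262 and 93 for Aged Sham, and 671, 350, 209 and 406 for Aged Bleo. Every Young Bleo library was above every Young Sham library, and every library of aged mice was below every library of young mice. Aged Sham and Aged Bleo overlapped, since Aged Bleo replicate 3 fell between the Aged Sham libraries. In Aged Sham, Evl was 4.01-fold lower than in Young Sham (log2 fold change of -2.005, 95% interval -2.65 to -1.36), and this call stood in both tools (DESeq2 adjusted p = 7.79e-07, edgeR adjusted p = 0.0117) and without any single library. In bulk RNA, fewer cells that carry a transcript and less of it per cell cannot be told apart.

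After bleomycin Evl was 1.75-fold higher in Young Bleo than in Young Sham, a call at the edge of the threshold (DESeq2 adjusted p = 0.0449, edgeR adjusted p = 0.0815) that was lost when any one of the 9 libraries was left out. Between Aged Bleo and Aged Sham the fold was 2.18 (DESeq2 adjusted p = 0.0262, edgeR adjusted p = 0.104), and it was lost without Aged Bleo replicate 1 or without Aged Sham replicate 15. The response to bleomycin was thus in the same direction at both ages, and the difference of the log2 responses, aged minus young, was 0.32 with a 95% interval of -0.58 to 1.21 (DESeq2 adjusted p = 0.9, edgeR adjusted p = 0.882). Aged Bleo stayed 3.22-fold under Young Bleo (log2 fold change of -1.69 ± 0.31 SE, DESeq2 adjusted p = 8e-05, edgeR adjusted p = 0.062), a call that held without each of the 8 libraries in turn. Against Young Sham it was 1.84-fold lower (DESeq2 adjusted p = 0.0347, edgeR adjusted p = 0.0908), and this call held in 1 of 9 fits that left out a library.

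Vasp and Enah are the other Ena/VASP genes. Vasp had 2644, 2294, 2680, 2414 and 2403 normalized counts for Young Sham, 2707, 3300, 3072 and 2366 for Young Bleo, 2712, 3211 and 2160 for Aged Sham, and 2441, 2533, 2196 and 2177 for Aged Bleo, so that all 4 groups overlapped. Its log2 fold change in Aged Sham against Young Sham was 0.12 with a 95% interval of -0.17 to 0.40 (DESeq2 adjusted p = 0.780, edgeR adjusted p = 0.794). Enah was scarce, with 80, 82, 37, 190 and 74 normalized counts for Young Sham, 185, 186, 298 and 138 for Young Bleo, 190, 149 and 79 for Aged Sham, and 210, 423, 73 and 101 for Aged Bleo. These groups overlapped too. Its log2 fold change was 1.12 in Young Bleo against Young Sham (95% interval 0.11 to 2.13, DESeq2 adjusted p = 0.129, edgeR adjusted p = 0.18), and Enah was called in no contrast. By FPKM, Vasp took most of the set in every library. Of the summed FPKM of the 3 genes, the share of Evl was 21.4% ± 1.083 (SD, n = 5) for Young Sham, 29.4% ± 3.74 (SD, n = 4) for Young Bleo, 5.69% ± 1.70 (SD, n = 3) for Aged Sham and 13.2% ± 5.09 (SD, n = 4) for Aged Bleo. The Aged Sham shares lay below all others, and Aged Bleo replicate 1 came up to the lowest Young Sham share, both at 19.8%.

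Evl overlaps the long non-coding gene Gm16596 and Degs2 (a sphingolipid desaturase) by position, and whether counting used the strand is not stated in the sources used here. Averaged over libraries, Gm16596 had 41.6% and Degs2 35.7% of the counts of Evl. Gm16596 was at 235 to 447 normalized counts in Young Sham and 223 to 470 in Aged Sham, with a log2 fold change of 0.01 (DESeq2 adjusted p = 0.995, edgeR adjusted p = 1). Degs2 was at 225 to 269 for Young Sham, 305 to 527 for Young Bleo, 136 to 224 for Aged Sham and 141 to 234 for Aged Bleo. Like Evl, Degs2 was higher in Young Bleo than in Young Sham and lower in Aged Bleo than in Young Bleo (both called by DESeq2 and not by edgeR), but its log2 fold change in Aged Sham was not called, being -0.36 (DESeq2 adjusted p = 0.528, edgeR adjusted p = 0.563). How far the overlap shifts reads between Evl and its neighbours was not tested.

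Since Evl had the smallest adjusted p between the ages, the 250 bases before its RefSeq starts are shown (GRCm38.p6, the build of mm10, plus strand, chr12:108554470-108554719 and chr12:108605516-108605765). The first lies before the start of the gene as the deposited table has it, and the second before a start inside the gene. Capitals mark the letters GGAATG, the core of the element that TEAD factors bind, on either strand, so that the first sequence shows it reversed as CATTCC.
Evl, upstream start: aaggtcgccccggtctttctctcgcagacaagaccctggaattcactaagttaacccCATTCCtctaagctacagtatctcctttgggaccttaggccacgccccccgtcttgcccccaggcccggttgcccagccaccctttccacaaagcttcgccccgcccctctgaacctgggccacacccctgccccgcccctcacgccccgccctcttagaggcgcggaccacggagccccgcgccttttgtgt
Evl, internal start: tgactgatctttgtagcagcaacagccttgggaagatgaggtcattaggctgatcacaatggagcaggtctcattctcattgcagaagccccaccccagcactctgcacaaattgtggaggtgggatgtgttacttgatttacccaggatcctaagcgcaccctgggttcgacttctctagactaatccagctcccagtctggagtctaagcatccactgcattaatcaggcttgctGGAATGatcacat
Over windows of 250 bases before to 50 bases after each RefSeq start, GGAATG was found on either strand in 14.663% of all 32851 windows and in 10 of the 44 windows of the 38 members that matched by symbol. Those 10 windows belong to 9 genes, Actn4, Arpc2, Evl, Flna, Myl12a, Pfn1, Tagln2, Tpm1 and Vcl. The ETS letters CAGGAAGT were in 2 member windows (Lima1 and Pfn1) and 3.327% of all windows, and CCGGAAGT in 2 (Arpc3 and Coro1c) and 3.887%. Neither ETS form was in the Evl windows. The GC content of the 250 bases was 64.0% at the upstream Evl start and 49.2% at the internal one, beside medians of 63.8% over the member windows and 52.4% over all windows. These matches describe letters in the sequence and are not measured binding.

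**Figure D3:**
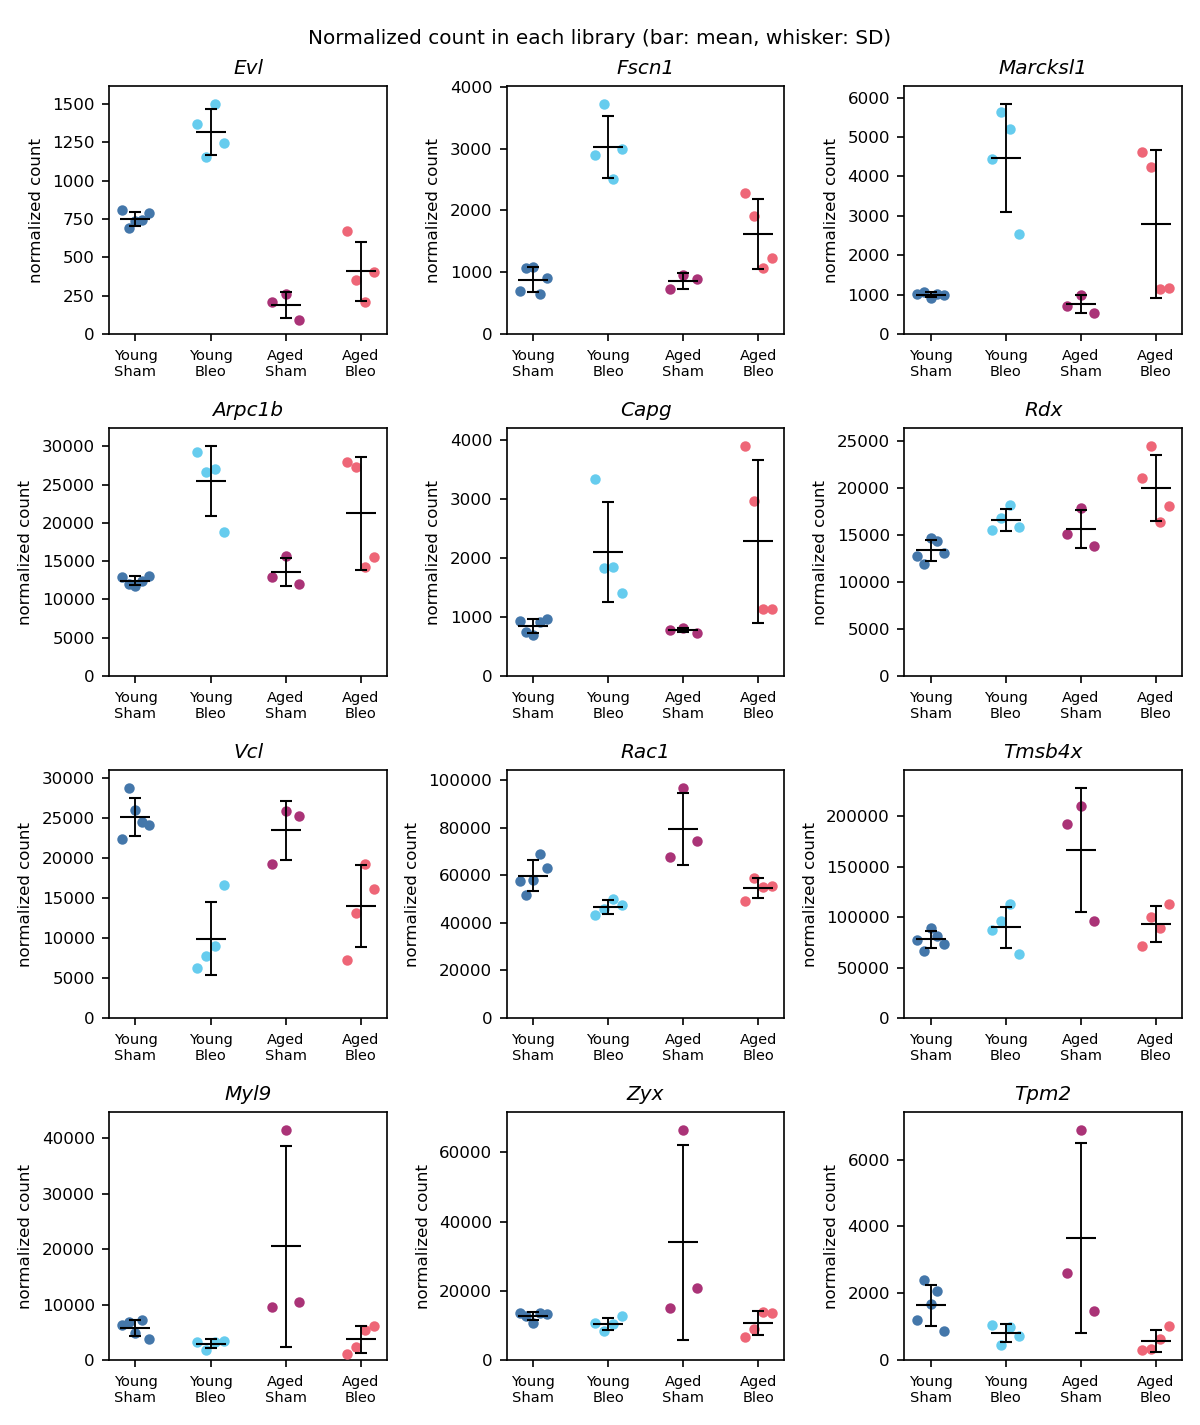
Normalized count (vertical axis) of 12 genes in each library, with points for libraries, a bar for the mean and a whisker for the SD in each group. Evl is lowest in aged mice, Fscn1, Marcksl1, Arpc1b and Capg are raised in bleomycin libraries, and the single high Aged Sham point of Myl9, Zyx and Tpm2 is replicate 14.

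The actins and the proteins that hold or sever actin came next in the order of roles. Actb was at 155053, 128895, 125002, 150059 and 137717 normalized counts for Young Sham, 122889, 124379, 151131 and 127616 for Young Bleo, 141661, 231767 and 163047 for Aged Sham, and 116812, 149332, 131043 and 104169 for Aged Bleo. Actg1 (gamma-actin) was at 60416, 49491, 47344, 59864 and 64310, then 66950, 60840, 65957 and 56613, then 40308, 77708 and 62940, and last 58480, 60516, 55920 and 40852 in the same order of groups. Both genes overlapped between Young Sham and each other group, and neither was called in any contrast. Of the summed FPKM of both, the share of Actb was 71.1% ± 1.79 (SD, n = 5) for Young Sham, 67.5% ± 2.26 (SD, n = 4) for Young Bleo, 74.8% ± 2.86 (SD, n = 3) for Aged Sham and 69.8% ± 2.32 (SD, n = 4) for Aged Bleo.

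Thymosins hold the actin monomers back from filaments. Tmsb4x (chrX:167207093-167209315, mm10) had normalized counts of 77821, 66438, 89678, 81688 and 73761 for Young Sham, 87263, 96244, 112896 and 63905 for Young Bleo, 192418, 210398 and 96416 for Aged Sham, and 70936, 100314, 89371 and 113091 for Aged Bleo. Aged Sham replicates 13 and 14 were far above all other libraries, while replicate 15 lay within the range of the bleomycin groups and just above Young Sham. The Aged Sham mean was 2.14-fold that of Young Sham (log2 fold change of 1.10 ± 0.24 SE, DESeq2 adjusted p = 9.63e-04, edgeR adjusted p = 0.0346). The call held without each library, but it was lost with limma on log2(FPKM + 0.1) and on log2(FPKM + 1). Aged Bleo was 1.78-fold lower than Aged Sham (DESeq2 adjusted p = 0.0248, edgeR adjusted p = 0.0986), a call lost without Aged Sham replicate 13 or 14 or Aged Bleo replicate 1.

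Tmsb10, the close relative of Tmsb4x, was far scarcer, at 940, 844, 1683, 1056 and 1082 normalized counts for Young Sham, 1752, 3148, 2401 and 1148 for Young Bleo, 2182, 798 and 483 for Aged Sham, and 2071, 2762, 1119 and 2606 for Aged Bleo. The bleomycin groups were mostly above Young Sham but overlapped it, and Aged Sham held both the lowest library of all and one of the higher ones. Its log2 fold change was 0.91 in Young Bleo (DESeq2 adjusted p = 0.0985, edgeR adjusted p = 0.148) and 0.93 in Aged Bleo against Young Sham (DESeq2 adjusted p = 0.113, edgeR adjusted p = 0.174), and neither was called. Of the summed FPKM of both thymosins, the share of Tmsb10 was 1.51% ± 0.28 (SD, n = 5) for Young Sham, 2.41% ± 0.67 (SD, n = 4) for Young Bleo, 0.71% ± 0.43 (SD, n = 3) for Aged Sham and 2.41% ± 0.77 (SD, n = 4) for Aged Bleo. Cfl1 and Pfn1 (profilin, which loads actin monomers) were called in no contrast, and Pfn1 in Aged Sham had a log2 fold change of 0.64 (DESeq2 adjusted p = 0.0716, edgeR adjusted p = 0.169).

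Of the 4 subunits of the Arp2/3 complex in the list, Arpc1b changed and Arpc2, Arpc3 and Arpc5 were called in no contrast. Arpc1b (chr5:145114215-145130705, mm10) had normalized counts of 12926, 12044, 11732, 12415 and 13102 for Young Sham, 29228, 26653, 26991 and 18778 for Young Bleo, 12984, 15605 and 12070 for Aged Sham, and 27968, 27264, 14226 and 15539 for Aged Bleo. All 8 bleomycin libraries were above all 5 Young Sham libraries. The Aged Bleo group fell into 2 high and 2 low libraries, and the low pair overlapped Aged Sham. Arpc1b was 2.04-fold higher in Young Bleo (log2 fold change of 1.03 ± 0.21 SE, DESeq2 adjusted p = 2.74e-05, edgeR adjusted p = 0.00486) and, for Aged Bleo, 1.71-fold above Young Sham (DESeq2 adjusted p = 0.00366, edgeR adjusted p = 0.0264), the latter call lost without Aged Bleo replicate 1. In Aged Bleo against Aged Sham its log2 fold change of 0.65 was not called (DESeq2 adjusted p = 0.0727, edgeR adjusted p = 0.144).

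Among the 6 crosslinking and bundling proteins, Fscn1 alone was called. Fascin packs filaments into the tight bundles of filopodia, the thin projections of migrating cells. Fscn1 (chr5:142960343-142973185, mm10) was at 699, 1069, 1085, 650 and 900 normalized counts for Young Sham, 2904, 3718, 2506 and 3001 for Young Bleo, 723, 962 and 893 for Aged Sham, and 2281, 1907, 1068 and 1234 for Aged Bleo. Young Bleo lay above every other library, Aged Bleo lay above Aged Sham in all 4 libraries, and Aged Bleo replicate 3 was inside the Young Sham range. The rise in Young Bleo was 3.45-fold (log2 fold change of 1.79 ± 0.24 SE, DESeq2 adjusted p = 4.54e-11, edgeR adjusted p = 9.04e-04), the smallest adjusted p of any member in any contrast. Aged Bleo was 1.84-fold above Young Sham (DESeq2 adjusted p = 0.00411, edgeR adjusted p = 0.028) and 1.89-fold above Aged Sham (DESeq2 adjusted p = 0.0182, edgeR adjusted p = 0.0831). The first call was lost without Aged Bleo replicate 1, and the second without any one of Aged Bleo replicates 1 and 2 and Aged Sham replicates 13 and 15.

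Fscn1 was 1.87-fold lower in Aged Bleo than in Young Bleo (log2 fold change of -0.90 ± 0.25 SE, DESeq2 adjusted p = 0.0346, edgeR adjusted p = 0.234), and this call was lost in 4 of 8 fits that left out a library. The difference of its responses to bleomycin, aged minus young, was -0.87 on the log2 scale with a 95% interval of -1.57 to -0.17, and did not pass the test over all genes (DESeq2 adjusted p = 0.416, edgeR adjusted p = 0.649). Actn1, Actn4, Flna, Lima1 and Tagln2, the other bundlers and crosslinkers, had log2 fold changes within the threshold or with too large an error. In the contrast of Aged Bleo with Young Sham, Lima1 passed in adjusted p at a log2 fold change of 0.45 (DESeq2 adjusted p = 0.0255, edgeR adjusted p = 0.0741), under the 0.5 required.

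Marcksl1 had the largest rise of any member after bleomycin. Marcksl1 (chr4:129513581-129515985, mm10), a small relative of the protein kinase C substrate MARCKS that binds membrane and actin, was at 1014, 1069, 914, 1014 and 981 normalized counts for Young Sham, 4444, 5641, 5208 and 2546 for Young Bleo, 723, 999 and 544 for Aged Sham, and 4620, 4226, 1152 and 1177 for Aged Bleo. Each bleomycin library was above each sham library, and the 2 lower Aged Bleo libraries were close to Young Sham. It was 4.47-fold higher in Young Bleo (log2 fold change of 2.16 ± 0.37 SE, DESeq2 adjusted p = 9.38e-07, edgeR adjusted p = 0.00356), 2.80-fold above Young Sham in Aged Bleo (DESeq2 adjusted p = 0.00191, edgeR adjusted p = 0.0267) and 3.70-fold higher in Aged Bleo than in Aged Sham (DESeq2 adjusted p = 0.00104, edgeR adjusted p = 0.0519). All 3 calls held without each library in turn. With limma on log2(FPKM + 0.1) and on log2(FPKM + 1), the call in Aged Bleo against Young Sham was lost. Marcks itself was called in no contrast.

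Capg (chr6:72544391-72562983, mm10), which caps filament ends and is abundant in macrophages, was at 938, 755, 691, 924 and 961 normalized counts for Young Sham, 3340, 1842, 1849 and 1403 for Young Bleo, 783, 820 and 738 for Aged Sham, and 3900, 2968, 1133 and 1146 for Aged Bleo. Here too every bleomycin library exceeded every sham library, with Aged Bleo replicates 1 and 2 and Young Bleo replicate 17 highest. Its rise was 2.47-fold in Young Bleo (DESeq2 adjusted p = 0.00207, edgeR adjusted p = 0.0202), 2.68-fold in Aged Bleo against Young Sham (DESeq2 adjusted p = 8.81e-04, edgeR adjusted p = 0.0186) and 2.93-fold in Aged Bleo against Aged Sham (DESeq2 adjusted p = 0.00345, edgeR adjusted p = 0.0609), the last call lost without Aged Bleo replicate 1. The sum of the leukocyte markers was 194537 and 122817 normalized counts in Aged Bleo replicates 1 and 2, where Capg, Marcksl1, Arpc1b and Fscn1 were high, and 48430 and 30577 in replicates 3 and 5, where they were low. In Young Bleo it was 61571, 65343, 42195 and 25595, and replicate 20 had the lowest Capg, Marcksl1 and Arpc1b of that group but the second highest Fscn1, at 3001. The part of leukocyte RNA in these rises was not tested.

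**Figure D4:**
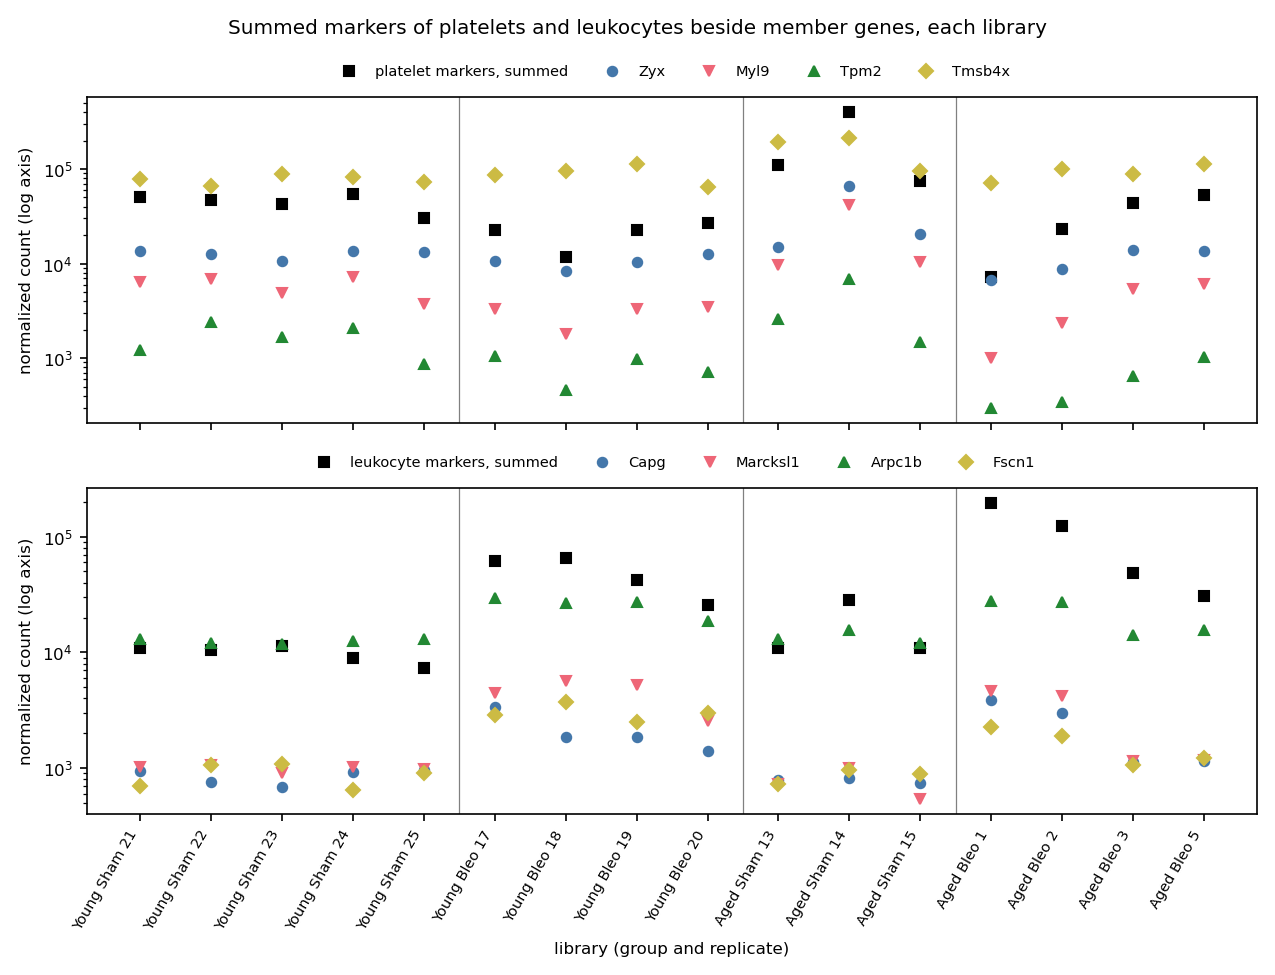
Normalized count in each library (vertical log axis) of Zyx, Myl9, Tpm2 and Tmsb4x beside the sum of 5 platelet markers (upper panel), and of Capg, Marcksl1, Arpc1b and Fscn1 beside the sum of 7 leukocyte markers (lower panel). Aged Sham replicate 14 has the highest platelet sum, 398519, and the highest Zyx, Myl9, Tpm2 and Tmsb4x, and Aged Bleo replicates 1 and 2 have the highest leukocyte sums.

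Of the other capping and coronin genes, Capzb, a subunit of the main capping protein of filament ends, was called lower in Aged Bleo than in Aged Sham. It fell by 0.56 on the log2 scale (1.47-fold lower, DESeq2 adjusted p = 0.00472, edgeR adjusted p = 0.0628), and the call was lost without Aged Sham replicate 14. Its normalized counts were 15332, 17127 and 12330 in Aged Sham and 10875, 10696, 9319 and 9720 in Aged Bleo, while the Young Sham range of 9486 to 13194 reached into both groups. Capzb, Rac1 and Vcl fell outside the rule for genes shown in full and were added after their values were seen. Coro1b and Coro1c, which encode coronins at branched actin, were called in no contrast.

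The adhesion proteins went in different directions. Vcl (chr14:20929433-21033673, mm10), vinculin, which links integrin adhesions and cell junctions to actin, was at 22310, 28647, 26011, 24454 and 24088 normalized counts for Young Sham, 6300, 7767, 9009 and 16599 for Young Bleo, 19171, 25852 and 25238 for Aged Sham, and 7219, 13108, 19261 and 16127 for Aged Bleo. Every bleomycin library was below every Young Sham library, and Young Bleo replicate 20 and Aged Bleo replicates 2, 3 and 5 were the least reduced. In the same library order, the leukocyte markers summed to 61571, 65343, 42195 and 25595 in Young Bleo. In Aged Bleo they summed to 194537, 122817, 48430 and 30577. Whether the fall of Vcl goes with this sum was not tested. Vcl was 2.53-fold lower in Young Bleo (log2 fold change of -1.34 ± 0.28 SE, DESeq2 adjusted p = 7.26e-05, edgeR adjusted p = 0.00893), in a call that held without each library. Against Young Sham it was 1.80-fold lower in Aged Bleo (DESeq2 adjusted p = 0.0283, edgeR adjusted p = 0.0881), which held in 3 of 9 fits with a library left out. In Aged Bleo against Aged Sham its log2 fold change of -0.75 was not called (DESeq2 adjusted p = 0.154, edgeR adjusted p = 0.25).

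Ap3m1 (an adaptor protein gene) overlaps Vcl by position and had 75.3% as many counts on average. It was also lower after bleomycin, by 2.21-fold in Young Bleo (DESeq2 adjusted p = 4.51e-07, edgeR adjusted p = 0.00283) and 1.60-fold in Aged Bleo against Young Sham (DESeq2 adjusted p = 0.00808, edgeR adjusted p = 0.044). Its normalized counts were 15845 to 22395 in Young Sham and 6077 to 10332 in Young Bleo, and the 2 genes cannot be told apart where reads fall in both.

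Zyx (chr6:42349828-42360146, mm10), zyxin, which gathers at adhesions and stress fibres under tension, was at 13503, 12676, 10590, 13578 and 13365 normalized counts for Young Sham, 10604, 8361, 10475 and 12632 for Young Bleo, 14903, 66368 and 20719 for Aged Sham, and 6747, 8829, 13940 and 13446 for Aged Bleo. Aged Sham was above all other libraries, with replicate 14 far above the other 2. It was 2.67-fold higher in Aged Sham than in Young Sham (log2 fold change of 1.42 ± 0.37 SE, DESeq2 adjusted p = 0.00765, edgeR adjusted p = 0.0802) and 3.17-fold lower in Aged Bleo than in Aged Sham (DESeq2 adjusted p = 0.00142, edgeR adjusted p = 0.0511). Both calls were lost without Aged Sham replicate 14, where the log2 fold changes were 0.48 (DESeq2 adjusted p = 0.428) and -0.73 (DESeq2 adjusted p = 0.0792). Talin (Tln1) and paxillin (Pxn) were called in no contrast, and Tln1 shares its position with Creb3, which had 68.7% as many counts.

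Among the myosin and tropomyosin genes, which serve contraction, 2 were called, Myl9 (by DESeq2 alone) and Tpm2. Myl9 (chr2:156775420-156781658, mm10), a regulatory light chain of smooth and non-muscle myosin, was at 6322, 6823, 4905, 7179 and 3757 normalized counts for Young Sham, 3272, 1794, 3304 and 3489 for Young Bleo, 9653, 41436 and 10493 for Aged Sham, and 1014, 2345, 5329 and 6147 for Aged Bleo. Aged Sham was above every other library and Young Bleo below every Young Sham library. The level in Aged Sham was 3.54-fold that of Young Sham (DESeq2 adjusted p = 0.0142, edgeR adjusted p = 0.108) and 5.54-fold that of Aged Bleo, which fell by 2.47 ± 0.53 (SE) on the log2 scale (DESeq2 adjusted p = 4.7e-04, edgeR adjusted p = 0.0511). Without Aged Sham replicate 14 the log2 fold changes were 0.80 (DESeq2 adjusted p = 0.484) and -1.44 (DESeq2 adjusted p = 0.0531), and neither was called. Myh9 and Myl12a, the heavy chain and another light chain of non-muscle myosin, were called in no contrast.

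Tpm2 (chr4:43514711-43523765, mm10), beta-tropomyosin, which lies along actin filaments in muscle and stress fibres, was at 1210, 2383, 1671, 2069 and 874 normalized counts for Young Sham, 1059, 460, 981 and 719 for Young Bleo, 2594, 6872 and 1476 for Aged Sham, and 298, 343, 642 and 1015 for Aged Bleo. Aged Bleo and Aged Sham did not overlap. The difference between them, a 6.35-fold lower level in Aged Bleo (log2 fold change of -2.67 ± 0.50 SE, DESeq2 adjusted p = 5.39e-05, edgeR adjusted p = 0.0457), was the largest of any member in any contrast that both tools called, and it held without each of the 7 libraries. Without Aged Sham replicate 14 it was -1.82 on the log2 scale (DESeq2 adjusted p = 0.00711). Against Young Sham, Tpm2 was 2.86-fold lower in Aged Bleo (DESeq2 adjusted p = 0.00948, edgeR adjusted p = 0.0639), a call lost without Aged Bleo replicate 1 or 2.

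The other tropomyosins were called in no contrast. Tpm1 was at 8205, 8043, 10576, 9366 and 9409 normalized counts for Young Sham, 6693, 7632, 7455 and 7620 for Young Bleo, 9713, 12420 and 10045 for Aged Sham, and 5777, 6721, 9216 and 10125 for Aged Bleo, with Young Bleo below every Young Sham library. Tpm3 was at 12472, 12312, 16750, 12290 and 13401, then 13901, 16049, 14367 and 13820, then 13578, 20542 and 14541, and last 15823, 16401, 15545 and 17273 in the same order of groups, which all overlapped Young Sham. Tpm4, the main tropomyosin of these libraries, was at 31226, 29520, 30678, 30467 and 30044 normalized counts for Young Sham, 43207, 46569, 43854 and 38126 for Young Bleo, 29478, 87182 and 39018 for Aged Sham, and 41889, 48186, 34951 and 34573 for Aged Bleo. All bleomycin libraries were above all Young Sham libraries, but the log2 fold change of 0.50 in Young Bleo was not called (DESeq2 adjusted p = 0.146, edgeR adjusted p = 0.177). Of the summed FPKM of the 4 genes, the share of Tpm4 was 76.8% ± 1.97 (SD, n = 5) for Young Sham, 83.6% ± 0.84 (SD, n = 4) for Young Bleo, 79.3% ± 4.76 (SD, n = 3) for Aged Sham and 81.2% ± 3.97 (SD, n = 4) for Aged Bleo. That of Tpm2 was 3.14% ± 1.20 (SD), 1.20% ± 0.41 (SD), 4.08% ± 1.55 (SD) and 0.93% ± 0.60 (SD) in the same order. Reads of Tpm3 may be shared with its copy Tpm3-rs7, which had 975 to 1719 normalized counts.

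**Figure D5:**
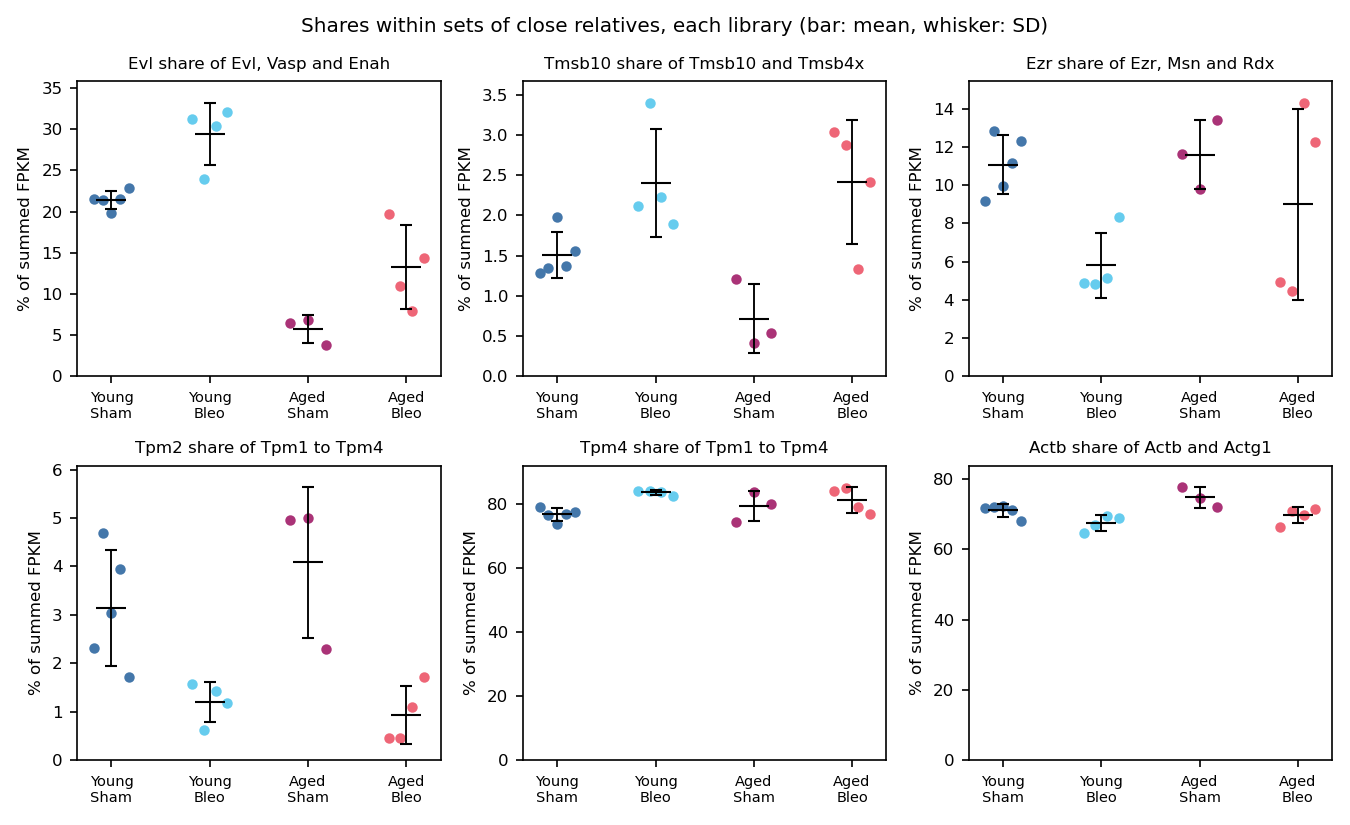
Share of one gene in the summed FPKM of its close relatives, in percent (vertical axis), with a point for each library, a bar for the mean and a whisker for the SD in each group. Evl has 21.4% of the Ena/VASP genes for Young Sham and 5.69% for Aged Sham, and the mean Actb share lies between 67.5% and 74.8%.

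Zyx, Myl9, Tpm2 and Tmsb4x were among the 18 members with their highest value in Aged Sham replicate 14, where the platelet markers summed to 398519 normalized counts. DESeq2 called 4 of the 5 platelet markers higher in Aged Sham than in Young Sham (edgeR 1) and 4 lower in Aged Bleo than in Aged Sham (edgeR 2). All 6 smooth muscle and pericyte markers were called lower in Aged Bleo against Young Sham (edgeR 5) and 3 were called lower in Young Bleo (edgeR 1). For Aged Sham the sums of the smooth muscle and pericyte markers were 10802, 6674 and 6977 in replicates 13, 14 and 15. The part of platelet or smooth muscle RNA in the differences of Zyx, Myl9, Tpm2 and Tmsb4x was not tested.

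Of the 38 members with a RefSeq window, 4 carry a CArG box, the element that serum response factor binds at many genes of actin and contraction, in the 300-base window at a RefSeq start, or 4 of the 44 windows searched, against 1.629% of all windows. They are shown here because contractile genes were among those that changed, each in a window of 30 bases on the strand of the gene (GRCm38.p6) with the box in capitals.
Actg1, chr11:120348566-120348595: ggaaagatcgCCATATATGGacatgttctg
Lima1, chr15:99820177-99820206: ctcactttgtCCTTATAAGGctatcctgtt
Myl9, chr2:156775293-156775322: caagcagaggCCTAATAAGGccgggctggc
Vcl, chr14:20929161-20929190: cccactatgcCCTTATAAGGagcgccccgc
Myl9 and Vcl were called as described above, Myl9 by DESeq2 alone and not without Aged Sham replicate 14. Actg1 and Lima1, which also carry the box, were called in no contrast. Tpm2 and Zyx, which were called, had no box in the windows searched.

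The ezrin, radixin and moesin proteins join actin to the cell membrane. Moesin was the main one, as Msn gave 65.9% ± 4.23 (SD, n = 5) of the summed FPKM of the 3 genes for Young Sham. Its normalized counts were 53257, 58118, 57066, 36792 and 49737 for Young Sham, 47400, 53016, 38714 and 65543 for Young Bleo, 29484, 57244 and 55761 for Aged Sham, and 56616, 47440, 60050 and 53986 for Aged Bleo, with overlap between all groups. Rdx (chr9:52047150-52088737, mm10) was at 12794, 11911, 14611, 14373 and 13024 normalized counts for Young Sham, 15538, 16770, 18142 and 15869 for Young Bleo, 15139, 17843 and 13828 for Aged Sham, and 21078, 24397, 16409 and 18014 for Aged Bleo. All bleomycin libraries were above all Young Sham libraries. Rdx was 1.5-fold above Young Sham in Aged Bleo (log2 fold change of 0.58 ± 0.13 SE, DESeq2 adjusted p = 2.9e-04, edgeR adjusted p = 0.0131), and without Aged Bleo replicate 2 it was 0.47, under the threshold of size. In Young Bleo its log2 fold change of 0.31 was not called (DESeq2 adjusted p = 0.0811, edgeR adjusted p = 0.123). Ezr was called in no contrast and was uneven after bleomycin, at 3668, 5653, 4373, 3630 and 4869 normalized counts for Young Sham, 1807, 1981, 1764 and 4067 for Young Bleo, 3377, 4543 and 5943 for Aged Sham, and 2270, 1931, 7069 and 5639 for Aged Bleo. In 3 Young Bleo and 2 Aged Bleo libraries it was below every sham library.

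Rac1, RhoA and RhoC are GTPases that switch the assembly of protrusions and contractile fibres. Rac1 was called lower in Aged Bleo than in Aged Sham (1.45-fold, DESeq2 adjusted p = 0.00427, edgeR adjusted p = 0.0743), with 67600, 96616 and 74389 normalized counts in Aged Sham and 49152, 58783, 55327 and 55624 in Aged Bleo. Without Aged Sham replicate 14, or without Aged Bleo replicate 1, it was not called. In Young Bleo it was 43524 to 50186, below all Young Sham libraries at 51918 to 68924, with a log2 fold change of -0.36 that missed the size required (DESeq2 adjusted p = 0.0234, edgeR adjusted p = 0.0854). Rhoa and Rhoc were called in no contrast, and Rhoa shares its position with the antisense gene RP23-448A11.8, which had 17.9% as many counts. Vim was called in no contrast. Its log2 fold change in Aged Bleo against Young Bleo was -0.38 (DESeq2 adjusted p = 0.0213, edgeR adjusted p = 0.321), with 61826 to 62090 normalized counts in Aged Bleo and 68465 to 89388 in Young Bleo.

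Another 85 genes of the same pathways, of which 84 were tested, were taken from lists that include Arp2/3 and WAVE genes, formins, actin turnover, adhesion, the serum response factor pathway and 3 migration genes named by the study. In Young Bleo against Young Sham 9 were called higher and 9 lower by DESeq2, where 7.57% and 6.35% of all genes were, and 6 and 7 by edgeR, beside 5.64% and 4.06%. Among the higher ones, the smallest adjusted p belonged to Cdh13 (T-cadherin), with a log2 fold change of 1.11 (DESeq2 adjusted p = 5.06e-05, edgeR adjusted p = 0.00528), Rnd1, with 0.71 (DESeq2 adjusted p = 1.67e-04, edgeR adjusted p = 0.0144), and Nov (a matricellular protein), with 1.58 (DESeq2 adjusted p = 0.00105, edgeR adjusted p = 0.0168). The lower ones were led by Ssh2 (a cofilin phosphatase), which fell by 1.17 on the log2 scale (DESeq2 adjusted p = 2.51e-04, edgeR adjusted p = 0.0115), Fmnl2 (a formin), by 1.13 (DESeq2 adjusted p = 7.79e-04, edgeR adjusted p = 0.0152), and Vav3 (an exchange factor), by 1.26 (DESeq2 adjusted p = 9.75e-04, edgeR adjusted p = 0.0187). The 3 migration genes Cdh13, Nov and Mmp14 (a membrane protease) were all called higher in Young Bleo by both tools, but the study chose them on these same libraries, so that they are no independent evidence.

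In Aged Sham against Young Sham 5 of the 84 genes were called higher and 1 lower, beside 2.24% and 1.11% of all genes, and edgeR called 2 higher, beside 0.688%. Arhgdib (abundant in blood cells) was at 6822, 28624 and 6889 normalized counts in Aged Sham and 3517 to 4862 in Young Sham, with replicate 14 again far above the others (DESeq2 adjusted p = 0.00146, edgeR adjusted p = 0.0468). Myh10, a heavy chain of non-muscle myosin, was at 907, 389 and 380 in Aged Sham and 92 to 242 in Young Sham (DESeq2 adjusted p = 2.64e-04, edgeR adjusted p = 0.0267). In Aged Bleo against Young Sham there were 4 higher and 6 lower, beside 6.58% and 3.14% of all genes, with Rac2 (a Rac protein of blood cells), Rnd1, Lims1 (an adhesion adaptor), Ssh2 and Dock4 (a Rac exchange factor) called by both tools. Aged Bleo against Aged Sham gave 4 higher and 9 lower by DESeq2, beside 3.39% and 2.44% of all genes, and 2 and 1 by edgeR, beside 0.415% and 0.3%, the last being Rnd1, Mmp14 and Lims1. Between the bleomycin groups 1 gene was called, Nov, lower in Aged Bleo (by DESeq2 alone, beside 0.41% of all genes), and in the difference of responses 0 of the 84 genes were called by DESeq2 and 0 by edgeR.

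The 15 other genes of the Arp2/3 and WAVE list, which also holds the activators Wasl and Cttn, had 0 calls in all contrasts but Young Bleo against Young Sham, where Abi1 (a WAVE subunit) was lower by DESeq2 and edgeR (1 of 15, beside 6.35% and 4.06% of all genes), and their median log2 fold change there was -0.11. Arpc1b was called in 2 contrasts where Arpc2, Arpc3 and Arpc5 were not, and Evl, Tmsb4x, Tpm2 and Marcksl1 were called while their relatives in the list, Vasp and Enah, Tmsb10, the other tropomyosins and Marcks, were called in no contrast. That a relative was not called does not show that it did not change, and the difference between relatives was not tested.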

How the data were processed

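Lung ECs from 16 labelled samples in 4 groups were profiled by RNA-seq. Per the labels and the study's methods, the authors aligned paired reads to mm10 with STAR 2.5.2b and obtained gene counts from featureCounts (Subread) within MAPRSeq. The deposited table holds raw counts and FPKM values (fragments scaled for gene length and library size), both computed by the authors. Annotation release, strand setting and treatment of reads with several matches are not given in the sources used here. The library kit differs between the labels and the study's methods.

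The deposited counts of all 43346 genes were fitted with DESeq2 1.42.0 (R 4.3.3) in one model of the 4 groups, Wald test, unshrunken, since the study's methods name it. edgeR 4.0.16 quasi-likelihood tests and limma 3.58.1 on log2(FPKM + 0.1) and log2(FPKM + 1) were alternatives, with other normalization, a mean count of 10, the compared groups alone and each library left out. Calls needed an adjusted p of 0.05 and a log2 fold change of 0.5. Tested on simulated data for Young Bleo against Young Sham with 200 changed genes, DESeq2 recovered 150 with 68 false among 218 calls over 43346 genes, and edgeR 124 with 8 false among 132 over 18093. Each library was a separate sample of freshly sorted cells, taken per the study from the lungs that also served its chromatin assay, where a sample was an individual mouse. Depth was 20.9 M to 71.0 M counts.

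The members and lists were chosen with earlier results of these data known. Genes shown in full were, by rule, the 3 called members with the smallest adjusted p in each contrast, Evl, which the study names, and the sets of close relatives Evl, Vasp and Enah, the actins, thymosins, tropomyosins and ezrin, radixin and moesin. Promoter letters come from RefSeq windows of GRCm38.p6.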

Additional observations from a re-analysis of the deposited data

Results flagged for a closer look

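Of 129 groups of 4 or 5 libraries tested, 1 for each gene and group, 11 held a library whose distance to the nearest other exceeded Dixon's 95% limit, and chance alone gives about 1 in 20. Groups of 3 were left out of this test, so Aged Sham is not among them and its libraries were not checked in this way. The Aged Bleo library of replicate 2 was highest in Cfl1 at 59442 normalized counts, in Arpc3 at 18863 and in Rhoc at 18670, and replicate 5 was lowest in Flna at 9350. Young Bleo replicate 20 was highest of its group in Ezr at 4067 and in Actn1 at 2905, replicate 19 was highest in Actb at 151131, and replicate 18 was lowest in Myl9 at 1794. In Young Sham, replicate 23 was highest in Tmsb10 at 1683 and in Tpm3 at 16750, and replicate 24 was highest in Tagln2 at 70073. The cause of these values was not tested. The test of whether the bleomycin response differed between the ages called 0 of the 43 genes.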

How the results depend on the processing

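For 30 calls of single members, 424 values under 22 settings gave 325 on the same side of the threshold, 99 that lost the call and 0 that reversed. With edgeR the calls were 2 in Aged Sham against Young Sham, 5 in Aged Bleo against Young Sham, 1 in Aged Bleo against Aged Sham and 0 in Aged Bleo against Young Bleo, against 4, 8, 10 and 2 with DESeq2, and 0.857%, 5.62%, 0.715% and 0.0218% of all genes were called by edgeR. Fitting the compared groups alone gave 11 calls in Young Bleo against Young Sham in place of 6 (16.9% of all genes in place of 13.9%), 5 in Aged Bleo against Aged Sham (3.47%) and 1 in Aged Bleo against Young Bleo (1.23%). With limma on log2(FPKM + 0.1) there was 1 call in Aged Sham against Young Sham (0.862% of all genes), 4 in Aged Bleo against Aged Sham (2.26%) and 1 between the bleomycin groups (0.192%), and on log2(FPKM + 1) there were 1, 3 and 1 (0.973%, 1.73% and 0.335%), and 5 in Aged Bleo against Young Sham (5.5%). The FPKM scale moved the median of all genes by over 0.1 with the smaller pseudocount, to -0.12 in Aged Sham against Young Sham and 0.12 in Aged Bleo against Aged Sham, from 0.02 and 0.01. Leaving out single libraries gave 2 to 7 calls in Aged Sham against Young Sham (2.06% to 3.97% of all genes), 5 to 7 in Young Bleo against Young Sham (10.6% to 18.2%), 4 to 9 in Aged Bleo against Young Sham (5.71% to 12.4%), 5 to 12 in Aged Bleo against Aged Sham (2.65% to 8.34%), 1 to 4 in Aged Bleo against Young Bleo (0.592% to 2.62%), and 0 to 2 in the difference of responses (0.169% to 1.23%). The causes were not tested. No paired analysis was possible because the library numbers do not repeat between groups. Depth limits Enah, at 37 to 423 normalized counts, most.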
